A study of Mus musculus with 8 samples.

Results

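The collagen chain genes of brown adipose tissue (BAT), which burns lipid to produce heat, were compared between wild-type (WT) and obese db/db mice. Members were all genes whose symbol is Col, a number, the letter a and a number, which gave 44 of the 31053 genes in the count table. BAT of 8-week-old mice was profiled by bulk RNA-seq in 4 WT samples and 4 db/db samples, each library labelled as a separate replicate. The WT mice were C57BL6/J, and the db/db mice (B6.BKS(D)-Leprdb/J, labelled with the same strain name) carry the db mutation of Lepr throughout the body, which removes the signalling form of the leptin receptor. All animals were male and were fasted before the tissue was taken, and no treatment is named for either genotype. The study's text gives differing suppliers for the WT mice, only one of which is that of the db/db mice, so whether the genotypes shared a supplier is unclear.

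Collagens are the main structural proteins of the extracellular matrix, and every collagen molecule is a rope-like helix of chains, each kind of which has its own gene. Fibrillar collagens pack into the cable-like fibrils of connective tissue, while basement membrane collagens form or line the thin sheet that surrounds each adipocyte, vessel and nerve. Type VI collagen makes beaded microfibrils that link fibrils to these sheets and is well known from fat tissue. The remaining chains decorate the surface of fibrils, span membranes, build short networks or belong to cartilage, skin and other specialised sites. In fat, most collagen is made by fibroblasts and adipocyte progenitors, with a share from vessels, other supporting cells and the adipocytes themselves, and obesity is known for matrix build-up in white fat.

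The WT libraries held 2374079 to 2615009 counts each and the db/db libraries 2382722 to 3240074. Levels are given as CPM, the counts scaled to a common library size after TMM normalisation, and 3 counts, taken as the floor of detection, were worth 0.902 to 1.33 CPM. This floor covers counting error only. Lepr itself had 0 counts in all 8 libraries, which leaves the genotype unchecked on its own transcript. The labels name the cell type as the stromal vascular fraction, the non-adipocyte cells of fat, but transcripts of mature brown adipocytes were abundant: Ucp1, the uncoupling protein of heat production, stood at 2248 ± 387 to 1429 ± 457 CPM (SD, n = 4) from WT to db/db. The libraries are therefore treated as whole tissue. Because they are bulk libraries, more cells of a type and more RNA per cell cannot be told apart in any value given here.

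Collagen chain genes were higher in db/db BAT in the fibrillar, basement membrane and type VI classes, and among the others in genes low in WT. Of the 44 members, 18 had enough counts to be tested, and 17 of these were higher in db/db at an adjusted p under 0.05, where 15.8% of all 9264 genes tested were higher and 27.7% were called in either direction. The 17 comprised 7 of 7 fibrillar chains, 4 of 4 basement membrane chains, 3 of 3 type VI chains and 3 of 4 others. The edgeR test called 0 members lower, where it called 11.9% of all genes lower, and 0 were lower at an unadjusted p under 0.05. DESeq2 and limma-voom also called 0 lower, beside 12.0% and 12.1% of all genes. The median log2 fold change over the 18 was 1.85, in a range of 0.43 to 3.08, beside a median of 0.01 over all genes tested. In the same 17 genes, all 4 db/db libraries lay above all 4 WT libraries, a separation that 15.3% of all genes tested showed. A gene that is low in WT passes the filter on counts only if it is high in db/db, and 6 of the 18 were under the filter's level of 3.99 CPM in at least 1 WT library. The other 12, which reached this level in all 4 WT libraries, were all called higher. They hold no chain of the others class, since all 4 tested chains of that class are among the 6.

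**Figure D1:**
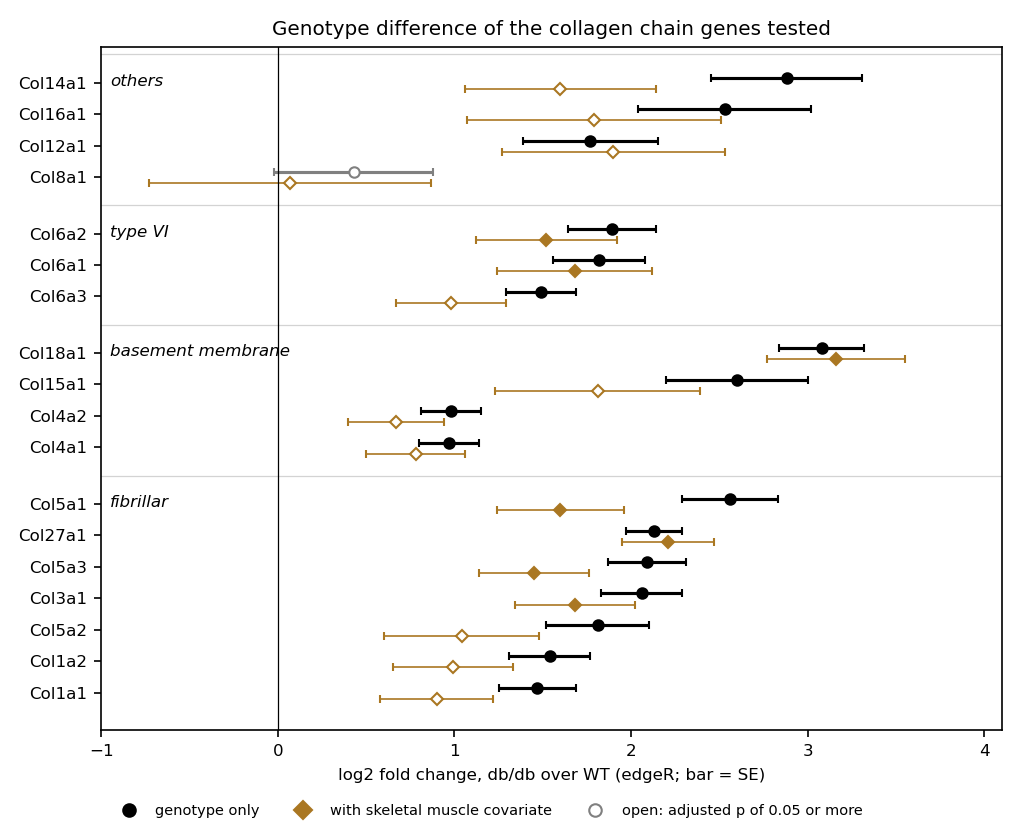
Log2 fold change of each tested collagen chain gene between db/db and WT, grouped by class, from edgeR with genotype as the only term (circles) and with the skeletal muscle marker level of each library as a covariate (diamonds). Bars are SE and open symbols mark an adjusted p of 0.05 or more. With genotype alone 17 of 18 genes lie to the right of 0 as filled circles, whereas 7 stay filled with the covariate.

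Transcripts of skeletal muscle, which borders the depot, moved with the genotypes as well, and all db/db libraries lay above all WT libraries: the mean log2 CPM of 8 muscle markers was 4.92, 5.97, 5.59 and 6.72 in WT and 9.30, 7.50, 8.19 and 6.91 in db/db (replicates 1 to 4 in this and all later value lists). With this level as a covariate, edgeR called 7 of the 18 collagen genes higher and 4.65% of all genes tested, and the median log2 fold change of the 18 was 1.56. Since muscle level and genotype go together, the covariate can also take up genotype difference, and the part of muscle in the collagen values was not tested.

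The sequence just before the transcription start is shown for 4 members that span the range of the result: Col3a1, whose fold change is the median of the tested fibrillar chains, Col27a1 and Col18a1, whose db/db values varied least between animals, and Col8a1, the tested member that was not called. The sequences are RefSeq's, on build GRCm38.p6, written 5′ to 3′ on the strand of the gene and ending at the base before the RefSeq start. That of Col18a1 was shortened to 232 bases, because GENCODE starts the first exon earlier. The windows hold 0 exon bases of the GENCODE annotation, and that of Col27a1 lies inside the body of its own gene, while the other windows overlap no annotated gene. Capitals mark every match, on either strand, to TATAA, the TATA box core, to CCAAT, a common promoter box, to GGGCGG, a GC box core that Sp1 can bind, and to CAGACA, a Smad-binding element.
Col3a1, chr1:45311288-45311537, plus strand: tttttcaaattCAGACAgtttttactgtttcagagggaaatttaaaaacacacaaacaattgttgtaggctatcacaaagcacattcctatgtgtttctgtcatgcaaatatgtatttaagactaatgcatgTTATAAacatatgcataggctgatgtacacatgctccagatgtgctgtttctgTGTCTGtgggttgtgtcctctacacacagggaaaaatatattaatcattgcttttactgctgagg
Col27a1, chr4:63215162-63215411, plus strand: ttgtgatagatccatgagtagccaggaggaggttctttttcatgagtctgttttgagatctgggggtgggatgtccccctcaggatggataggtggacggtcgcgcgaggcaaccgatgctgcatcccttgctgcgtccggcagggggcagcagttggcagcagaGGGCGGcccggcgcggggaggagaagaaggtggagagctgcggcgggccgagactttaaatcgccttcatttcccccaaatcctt
Col18a1, chr10:77166549-77166780, minus strand: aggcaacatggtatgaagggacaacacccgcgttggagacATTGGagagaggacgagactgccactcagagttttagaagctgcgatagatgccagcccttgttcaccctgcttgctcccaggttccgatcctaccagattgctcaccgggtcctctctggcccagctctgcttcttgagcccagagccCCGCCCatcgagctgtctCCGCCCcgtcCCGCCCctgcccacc
Col8a1, chr16:57754738-57754987, minus strand: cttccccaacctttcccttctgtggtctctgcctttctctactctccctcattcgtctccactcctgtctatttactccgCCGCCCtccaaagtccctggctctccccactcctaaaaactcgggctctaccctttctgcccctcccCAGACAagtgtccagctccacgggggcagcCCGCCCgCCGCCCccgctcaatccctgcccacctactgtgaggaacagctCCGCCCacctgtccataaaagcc
The Col3a1 window held TATAA on both strands, in positions that overlap 113 to 118 bases before the start, and CAGACA once on each strand. Col27a1 held GGGCGG once, Col18a1 held it 3 times besides CCAAT, and Col8a1 held it 4 times besides CAGACA. Over 250-base windows of 14 tested members (16 windows), TATAA occurred in 1, CCAAT in 6, GGGCGG in 10 and CAGACA in 5. In all 32851 windows the shares were 22.8% for TATAA, 33.8% for CCAAT, 32.7% for GGGCGG and 17.1% for CAGACA. A match is a run of letters and not a measured binding site.

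All 7 tested fibrillar chains rose, from 2.76-fold for Col1a1 to 5.91-fold for Col5a1. Col1a1 (ENSMUSG00000001506, chromosome 11, 94936224 to 94953042) and Col1a2 (ENSMUSG00000029661, chromosome 6, 4504814 to 4541544) encode the chains of type I collagen, the chief fibre of connective tissue, and all positions are on build mm10. Col1a1 measured 106, 89.5, 89.8 and 99.7 CPM in WT and 424, 265, 161 and 211 CPM in db/db. The db/db libraries were all above WT but spread widely, with the highest in replicate 1 (96.3 ± 8.07 to 266 ± 114 CPM, SD, n = 4; log2 fold change 1.47 with SE 0.22, edgeR adjusted p 8.72e-05). Col1a2 measured 124, 125, 154 and 114 CPM in WT and 589, 402, 231 and 278 CPM in db/db, again with no overlap and with the same order of the db/db libraries (129 ± 17.4 to 375 ± 160.0 CPM; log2 fold change 1.54 with SE 0.23, edgeR adjusted p 6.89e-05).

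Col3a1 (ENSMUSG00000026043, chromosome 1, 45311538 to 45349706) encodes type III collagen, which accompanies type I in pliable tissues and vessel walls. It measured 96.3, 77.7, 106 and 97.6 CPM in WT and 582, 419.9, 214 and 350.4 CPM in db/db. The lowest db/db library was 2 times the highest WT library or more (94.3 ± 11.8 to 392 ± 153 CPM; log2 fold change 2.06 with SE 0.23, edgeR adjusted p 3.48e-06). An unnamed gene model, Gm47302, shares exon bases with Col3a1 on the same strand, so that reads of the overlap could not be assigned with certainty.

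Type V collagen lies inside type I fibrils and limits their width, and each of its chain genes rose. Col5a1 (ENSMUSG00000026837, chromosome 2, 27886425 to 28039514) measured 12.9, 16.0, 11.6 and 9.76 CPM in WT and 125, 58.9, 62.5 and 50.6 CPM in db/db. Every db/db library was far above WT, and replicate 1 stood apart (12.6 ± 2.64 to 74.3 ± 34.4 CPM; log2 fold change 2.56 with SE 0.27, edgeR adjusted p 2.7e-06). The log2 fold change was 2.18 without db/db replicate 1 and 1.60 with the muscle covariate. Col5a1 overlaps 2810430I11Rik and Gm13372 on the opposite strand, and its counts are uncertain to that extent, since the strand setting of the counting is not stated. Col5a2 (ENSMUSG00000026042, chromosome 1, 45374321 to 45503282) measured 20.6, 13.5, 14.3 and 11.9 CPM in WT and 88.4, 50.6, 41.7 and 30.5 CPM in db/db. Its groups did not overlap, although db/db replicate 4 exceeded WT replicate 1 by less than the db/db SD (15.1 ± 3.84 to 52.8 ± 25.1 CPM; log2 fold change 1.81 with SE 0.29, edgeR adjusted p 0.00013). Col5a3 (ENSMUSG00000004098, chromosome 9, 20770050 to 20815067) measured 22.3, 23.6, 25.2 and 22.9 CPM in WT and 156, 85.3, 71.4 and 85.9 CPM in db/db. The WT libraries were nearly alike and every db/db library stood well above them (23.5 ± 1.25 to 99.6 ± 38.1 CPM; log2 fold change 2.09 with SE 0.22, edgeR adjusted p 2.13e-06).

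Col27a1 (ENSMUSG00000045672, chromosome 4, 63214004 to 63334991), a fibrillar chain best known from cartilage, had an order of db/db libraries unlike that of type I, III and V chains. It measured 31.6, 26.2, 22.5 and 32.7 CPM in WT and 112, 117, 134 and 132 CPM in db/db. Replicate 1 was the lowest db/db library and the db/db coefficient of variation was 8.88%, against 22.0% to 63.1% in the tested members other than Col18a1 (28.2 ± 4.74 to 124 ± 11.0 CPM; log2 fold change 2.13 with SE 0.16, edgeR adjusted p 3.39e-08). With the muscle covariate its log2 fold change was 2.21 (SE 0.26, edgeR adjusted p 1.36e-05). Of 6 cartilage and bone markers, Acan, Matn1, Ibsp, Bglap and Sp7 were at 0 counts in all 8 libraries and Comp had at most 2 counts.

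The other 4 fibrillar chains did not pass the filter. Col2a1, the main cartilage collagen, had 0 counts in all libraries. Col11a1 reached at most 2 counts and Col24a1 at most 1. Col11a2, also a cartilage chain, had 12, 10, 5 and 1 counts in WT and 4, 1, 0 and 1 counts in db/db. It was the one member with an adjusted p under 0.05 for a lower level in db/db when all 16410 genes with at least 1 count were tested (log2 fold change −2.43 with SE 0.86, edgeR adjusted p 0.0296), where 8.01% of those genes were called lower. That test rests on at most 12 counts per library.

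**Figure D2:**
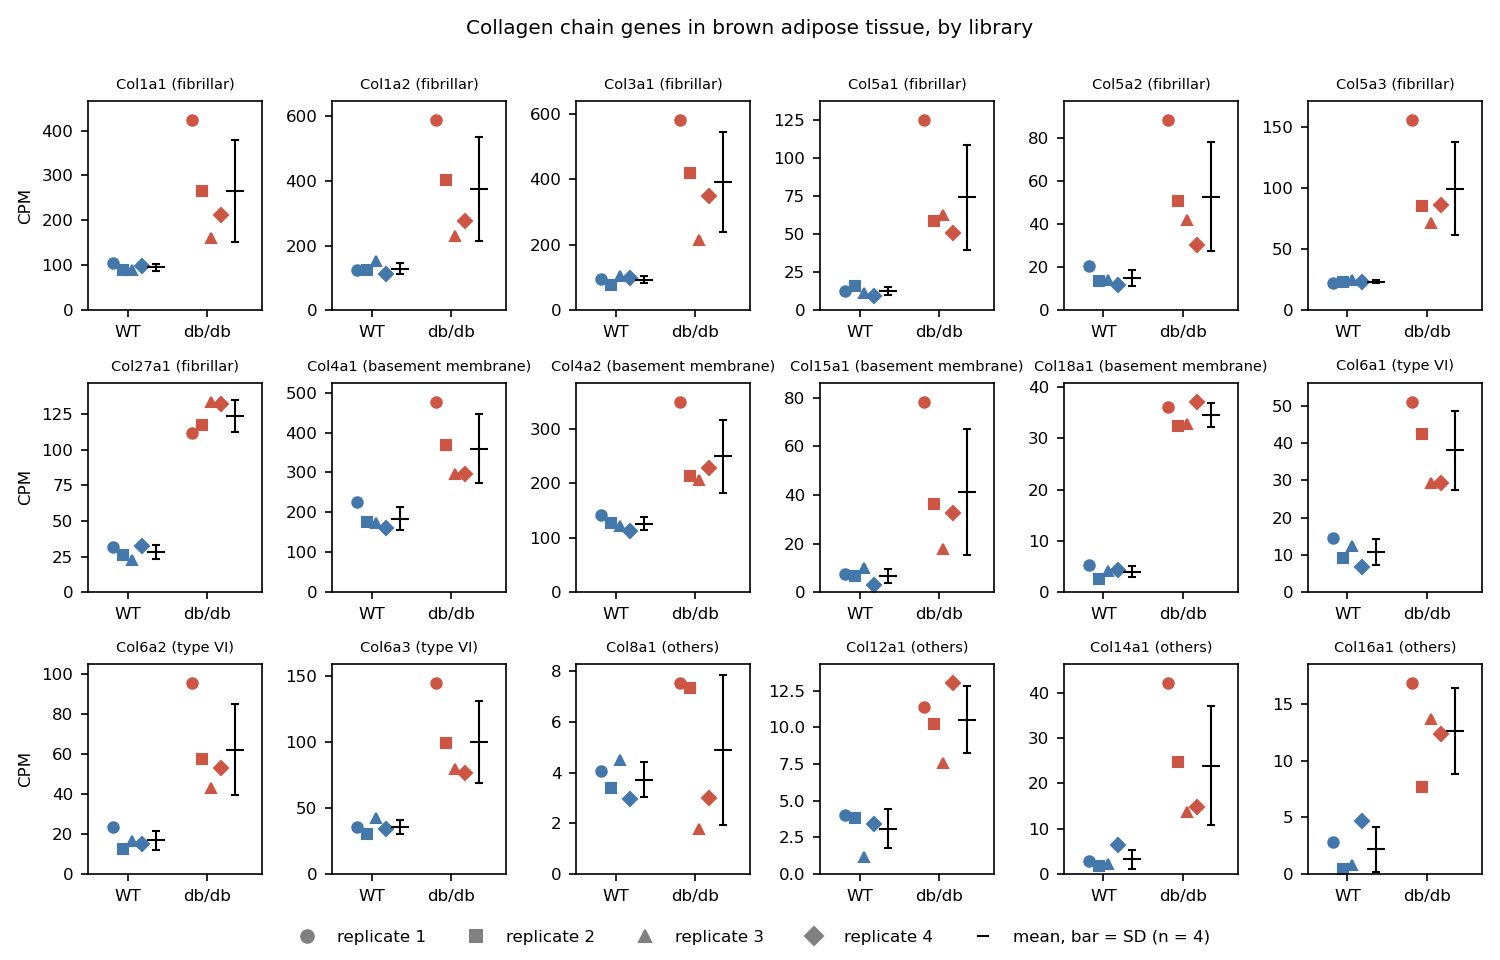
CPM of the 18 tested collagen chain genes in every library, with a symbol for each replicate number and the mean and SD (n = 4) beside each genotype; each panel has its own linear axis from 0. In 17 panels the db/db points lie above all WT points, and in Col8a1 they overlap.

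All 4 tested basement membrane chains rose, but by very different amounts: the log2 fold changes were 0.97 and 0.98 for the type IV chains and 2.6 and 3.08 for the other pair. Col4a1 (ENSMUSG00000031502, chromosome 8, 11198423 to 11312826) and Col4a2 (ENSMUSG00000031503, chromosome 8, 11312805 to 11449287) encode the chains of the common type IV network. Col4a1 measured 226, 176, 174 and 160.4 CPM in WT and 478, 368, 297 and 296 CPM in db/db. Its db/db libraries were all higher, about 2-fold on average (184 ± 28.6 to 359.7 ± 85.7 CPM; log2 fold change 0.97 with SE 0.17, edgeR adjusted p 0.000279). Col4a2 measured 142, 128, 122 and 113 CPM in WT and 350.5, 214, 206 and 228 CPM in db/db, with no overlap and db/db replicate 1 far above the rest (126 ± 12.4 to 249.6 ± 67.9 CPM; log2 fold change 0.98 with SE 0.17, edgeR adjusted p 0.000248). The genes are transcribed away from each other and overlap by 22 bases at their 5′ ends, and Col4a2 also shares exon bases with Gm15419.

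Col15a1 and Col18a1 encode the basement membrane collagens that carry sugar chains and release an endostatin fragment. Col15a1 (ENSMUSG00000028339, chromosome 4, 47208161 to 47313167) measured 7.69, 6.75, 9.77 and 2.97 CPM in WT and 78.5, 36.3, 17.7 and 32.7 CPM in db/db. WT values were low and db/db values spread over a wide range, all above WT (6.8 ± 2.84 to 41.3 ± 26.1 CPM; log2 fold change 2.6 with SE 0.40, edgeR adjusted p 9.75e-05). It overlaps Gm12426 on the opposite strand. Col18a1 (ENSMUSG00000001435, chromosome 10, 77052178 to 77166548) measured 5.26, 2.53, 4.13 and 4.24 CPM in WT and 36.1, 32.5, 32.8 and 37.2 CPM in db/db. The db/db libraries lay closer together than for any other tested member, with a coefficient of variation of 6.84%, and the fold change of 8.46 was the largest of the 18 (4.04 ± 1.13 to 34.6 ± 2.37 CPM; log2 fold change 3.08 with SE 0.24, edgeR adjusted p 8.14e-08). It was about as large with the muscle covariate (log2 fold change 3.16 with SE 0.39, edgeR adjusted p 2.21e-05). The log2 fold change of Col15a1 was 1.81 with the covariate and no longer passed (SE 0.58, edgeR adjusted p 0.07). Both genes passed the filter with 3 of 4 WT libraries above its level, and the counts behind the WT values of Col18a1 were 13, 6, 11 and 10.

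Other type IV chains build the specialised basement membranes of kidney, lung and other organs, and none of these passed the filter. Col4a4 had 10, 8, 14 and 3 counts in WT and 15, 2, 9 and 8 counts in db/db, and Col4a5 had 2, 0, 0 and 1 counts in WT and 6, 12, 1 and 5 counts in db/db. Col4a3 reached at most 2 counts and Col4a6 at most 1. The groups overlapped in each of them, and no difference was detectable at this depth. When all genes with at least 1 count were tested, none of these chains passed. Col4a5 came nearest (log2 fold change 2.51 with SE 1.04, edgeR adjusted p 0.0749).

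The common type VI chains rose together by 2.81-fold to 3.70-fold. Col6a1 (ENSMUSG00000001119, chromosome 10, 76708792 to 76726168) measured 14.6, 9.28, 12.4 and 6.79 CPM in WT and 51.1, 42.3, 29.3 and 29.4 CPM in db/db. Col6a2 (ENSMUSG00000020241, chromosome 10, 76595762 to 76623630) measured 23.5, 12.7, 16.5 and 14.9 CPM in WT and 95.4, 57.6, 43.0 and 53.2 CPM in db/db. In both genes all db/db libraries lay above WT. The means of Col6a1 were 10.8 ± 3.42 to 38.0 ± 10.7 CPM (log2 fold change 1.82 with SE 0.26, edgeR adjusted p 4.56e-05), and those of Col6a2 were 16.9 ± 4.67 to 62.3 ± 22.9 CPM (log2 fold change 1.89 with SE 0.25, edgeR adjusted p 2.42e-05). Col6a3 (ENSMUSG00000048126, chromosome 1, 90765923 to 90843971), the largest chain, whose end is cut off as the adipose signal endotrophin, measured 35.6, 30.0, 42.8 and 34.4 CPM in WT and 145, 99.3, 79.8 and 77.0 CPM in db/db. It too showed no overlap (35.7 ± 5.34 to 100.2 ± 31.3 CPM; log2 fold change 1.49 with SE 0.20, edgeR adjusted p 2.59e-05). The later-found chains were hardly seen: Col6a4 had 0 counts in all libraries, Col6a5 at most 1, and Col6a6 at most 8, in db/db replicate 1.

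Among the 19 remaining chains, 4 were tested and 3 rose, all of them members of the family that coats fibril surfaces (fibril-associated collagens). Col12a1 (ENSMUSG00000032332, chromosome 9, 79598991 to 79718831) measured 4.05, 3.8, 1.13 and 3.4 CPM in WT and 11.4, 10.2, 7.54 and 13.0 CPM in db/db. Every db/db library exceeded the highest WT library (3.09 ± 1.34 to 10.5 ± 2.32 CPM; log2 fold change 1.77 with SE 0.38, edgeR adjusted p 0.00198). Col14a1 (ENSMUSG00000022371, chromosome 15, 55307750 to 55520803) measured 2.83, 1.69, 2.25 and 6.37 CPM in WT and 42.1, 24.8, 13.7 and 14.9 CPM in db/db. WT replicate 4 stood above the other WT libraries, and all db/db libraries were higher still (3.29 ± 2.11 to 23.9 ± 13.1 CPM; log2 fold change 2.88 with SE 0.43, edgeR adjusted p 7.54e-05). With the muscle covariate the log2 fold change of Col14a1 was 1.60 and no longer passed. Col16a1 (ENSMUSG00000040690, chromosome 4, 130047840 to 130099283) measured 2.83, 0.422, 0.752 and 4.67 CPM in WT and 16.8, 7.64, 13.7 and 12.3 CPM in db/db. Its WT counts were 7, 1, 2 and 11, so that the size of its rise rests on few WT reads (2.17 ± 1.98 to 12.6 ± 3.83 CPM; log2 fold change 2.53 with SE 0.49, edgeR adjusted p 0.000753). The log2 fold change of Col16a1 was 3.19 without WT replicate 4 and, no longer past the threshold, 1.79 with the muscle covariate. For each of these genes only 1 WT library reached the filter's level.

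Col8a1 (ENSMUSG00000068196, chromosome 16, 57624258 to 57754737), a short network collagen of vessel walls and other tissues, was the tested member that was not called. It measured 4.05, 3.38, 4.51 and 2.97 CPM in WT and 7.52, 7.32, 1.77 and 2.98 CPM in db/db. Replicates 1 and 2 of db/db were above all WT libraries, while replicate 3 was below them and replicate 4 was level with the lowest (3.73 ± 0.685 to 4.9 ± 2.95 CPM; log2 fold change 0.43 with SE 0.45, edgeR adjusted p 0.522). The groups overlapped, and a difference was not detectable against this spread.

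The other 15 chains were under the filter. Col23a1, a membrane-spanning collagen, had 1, 5, 1 and 4 counts in WT and 9, 18, 3 and 7 counts in db/db. Col13a1, another of that kind, had 3, 0, 2 and 1 counts in WT and 6, 7, 6 and 9 counts in db/db, and Col28a1 had 2, 2, 3 and 0 counts in WT and 4, 5, 4 and 4 counts in db/db. Scaled to CPM, the db/db libraries of Col13a1 and Col28a1 lay above all WT libraries. Col20a1, a fibril-associated chain, had 9, 5, 7 and 7 counts in WT and 7, 1, 2 and 1 counts in db/db. Its db/db libraries lay below all WT libraries in CPM. Over all genes tested, 15.3% had all db/db libraries above all WT libraries and 12.7% had them all below. The share among genes under the filter was not counted. Col7a1, the anchoring fibril of skin, had 0, 4, 1 and 3 counts in WT and 1, 0, 1 and 2 counts in db/db. When all genes with at least 1 count were tested, Col13a1 (log2 fold change 1.92 with SE 0.88, edgeR adjusted p 0.115), Col28a1 (1.0 with SE 0.97, edgeR adjusted p 0.521) and Col20a1 (−1.59 with SE 0.77, edgeR adjusted p 0.14) did not pass. At most 3 counts were seen for Col25a1, 2 for Col8a2 and Col9a3, and 1 for Col26a1. Col9a1, Col9a2, Col10a1, Col17a1, Col19a1 and Col22a1, chains known from cartilage, skin and muscle junctions, had 0 counts in all 8 libraries.

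Summed over each class, every db/db library lay above every WT library. The sums and shares here are descriptions with no test, and they add genes of different length as counts. Fibrillar chains summed to 419, 376, 425 and 389 CPM in WT and 2078, 1399, 917 and 1139 CPM in db/db, a ratio of the means of 3.44. Basement membrane chains summed to 387, 316, 316 and 282 CPM in WT and 949, 656, 558 and 598 CPM in db/db, a ratio of 2.12. For type VI chains the sums were 73.7, 52.3, 72.5 and 56.5 CPM in WT and 294, 199, 153 and 160.0 CPM in db/db, a ratio of 3.16, and for the others 19.8, 17.3, 13.9 and 23.8 CPM in WT and 86.6, 61.1, 44.3 and 52.5 CPM in db/db, a ratio of 3.27. All collagen chains together made up 0.0815 ± 0.00944% (SD, n = 4) of all WT counts, and 0.233 ± 0.0928% (SD, n = 4) of all db/db counts.

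The ratios differed between classes, and the make-up of the collagen counts with them. From WT to db/db the fibrillar share of collagen counts went from 49.7 ± 2.38% to 58.7 ± 2.78% (SD, n = 4 each). The share of basement membrane chains went from 40.1 ± 2.64% to 30.1 ± 2.52%, and that of the type IV chains alone from 38.8 ± 2.6% to 26.8 ± 2.58%. Type VI chains held 7.83 ± 0.821% to 8.64 ± 0.389%, within about 1 SD of each other. These shares are bound to add up, so that they are not separate observations.

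**Figure D3:**
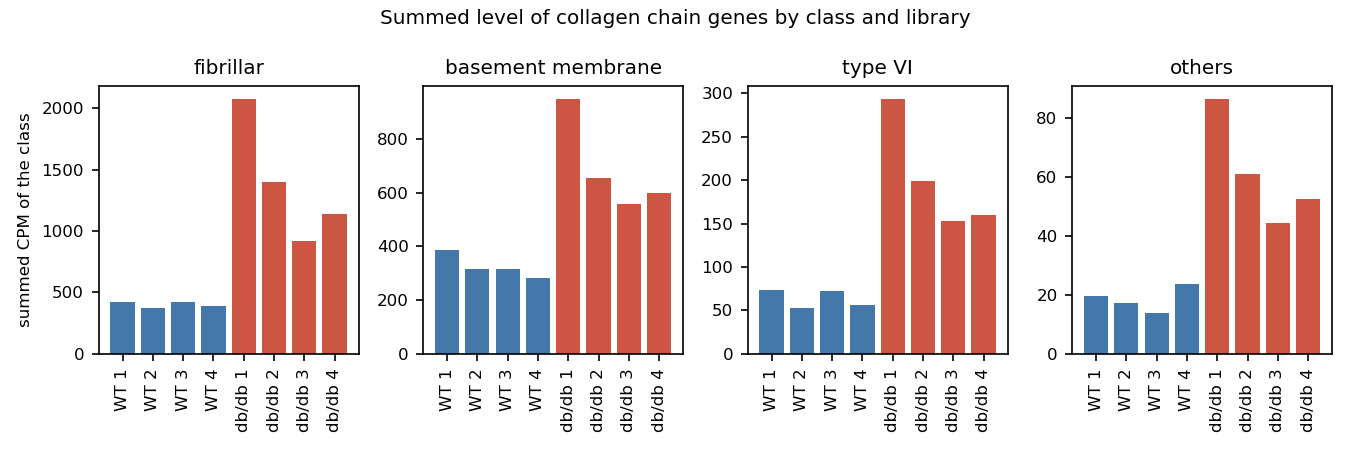
Summed CPM of the collagen chain genes of each class in every library, as bars from 0, with WT in blue and db/db in red. In each class the lowest db/db bar is above the highest WT bar, and db/db replicate 1 is the highest, at 2078 CPM for fibrillar chains.

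Among the db/db animals, replicate 1 had the highest value in 15 of the 18 tested members, the exceptions being Col12a1, Col18a1 and Col27a1, and replicate 3 had the lowest in 11. In muscle marker level, db/db replicate 1 was the highest and db/db replicate 3 came next, at 8.19. In WT, replicate 1 had the lowest muscle level and the highest collagen value in 8 of the 18 members. WT replicate 4 had the highest muscle level and the lowest collagen value in 8. Whether the order of the collagen values goes with the muscle level was not tested. Without db/db replicate 1, the ratio of the summed means was 2.86 for fibrillar, 1.86 for basement membrane, 2.68 for type VI and 2.81 for other chains, and all 17 genes were still called. Leaving out any other single library also kept all 17. Most members share db/db replicate 1 as their highest library, so their fold changes are not independent of each other.

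With the muscle covariate, 10 of the 17 genes were no longer called. Their log2 fold changes were then 0.90 for Col1a1, 0.99 for Col1a2, 0.78 for Col4a1, 0.67 for Col4a2, 1.04 for Col5a2, 0.98 for Col6a3, 1.90 for Col12a1, 1.60 for Col14a1, 1.81 for Col15a1 and 1.79 for Col16a1, with edgeR adjusted p from 0.0643 to 0.193. The 7 that stayed past the threshold had log2 fold changes of 1.68 for Col3a1, 1.60 for Col5a1, 1.45 for Col5a3, 1.68 for Col6a1, 1.52 for Col6a2, 3.16 for Col18a1 and 2.21 for Col27a1, with edgeR adjusted p from 1.36e-05 to 0.0238. All 18 estimates remained above 0, with Col8a1 at 0.07 (SE 0.80).

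Ratios between chains within a library need no scaling, and 9 pairs were compared by an exact permutation test whose smallest p with 4 against 4 libraries is 0.0286. Between chains of the same molecule, 3 pairs differed by less than the spread of the libraries. Col1a1 to Col1a2 went from −0.42 ± 0.27 in WT to −0.50 ± 0.08 in db/db (log2 ratio, SD, n = 4 each, exact two-sided permutation p = 0.629, adjusted 0.808). Col4a1 to Col4a2 went from 0.54 ± 0.09 in WT to 0.53 ± 0.18 in db/db (log2 ratio, SD, n = 4 each, exact two-sided permutation p = 1, adjusted 1), and Col6a1 to Col6a2 went from −0.66 ± 0.32 in WT to −0.69 ± 0.22 in db/db (log2 ratio, SD, n = 4 each, exact two-sided permutation p = 0.943, adjusted 1). The libraries of both genotypes overlapped in all 3. The other same-molecule pairs were Col5a1 to Col5a2, which differed by 0.75 on the log2 scale (exact permutation p = 0.0571, adjusted 0.103), and Col6a3 to Col6a1, which differed by −0.37 (exact permutation p = 0.114, adjusted 0.171), again with overlap.

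The remaining pairs set chains of different molecules against each other. Col3a1 to Col1a1 went from −0.04 ± 0.19 in WT to 0.56 ± 0.16 in db/db (log2 ratio, SD, n = 4 each, exact two-sided permutation p = 0.0286, adjusted 0.0857). Col6a1 to Col4a1 went from −4.12 ± 0.32 in WT to −3.25 ± 0.10 in db/db (log2 ratio, SD, n = 4 each, exact two-sided permutation p = 0.0286, adjusted 0.0857), and Col15a1 to Col4a1 went from −4.82 ± 0.63 in WT to −3.29 ± 0.60 in db/db (log2 ratio, SD, n = 4 each, exact two-sided permutation p = 0.0286, adjusted 0.0857). The genotypes did not overlap in these 3 pairs, but none of the 9 passed 0.05 after adjustment, which with this design takes at least 6 pairs at the smallest p. Col1a1 to Col4a1 differed by 0.42 on the log2 scale, with overlap (exact permutation p = 0.0571, adjusted 0.103).

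**Figure D4:**
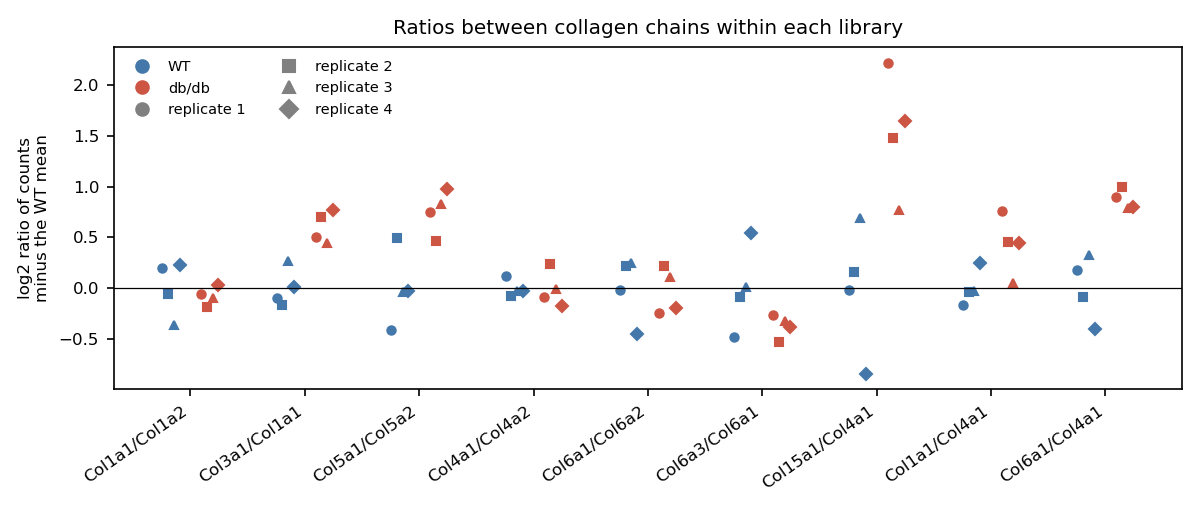
Log2 ratio of the counts of paired collagen chains in every library, minus the WT mean of the pair, for WT in blue and db/db in red, with a symbol for each replicate number. The db/db points lie above all WT points for Col3a1/Col1a1, Col15a1/Col4a1 and Col6a1/Col4a1, and overlap them in the other pairs.

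Several tested members are neighbours in the genome. Col3a1 and Col5a2 lie 24614 bases apart on chromosome 1, with log2 fold changes of 2.06 and 1.81. Col6a2 and Col6a1 lie 85161 bases apart on chromosome 10, at 1.89 and 1.82, and Col18a1 follows Col6a1 after 326009 bases at 3.08. Col4a1 and Col4a2, which overlap on chromosome 8, stood at 0.97 and 0.98.

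Genes that fold, process, cross-link, degrade or bind collagen were followed as lists. Of 61 such genes, 60 had a row in the table, 37 were tested and 24 were higher in db/db, beside the 15.8% of all genes. None was called lower by edgeR, DESeq2 or limma-voom, beside 11.9%, 12.0% and 12.1% of all genes. In edgeR, 1 had an unadjusted p under 0.05 for a lower level. Their median log2 fold change was 1.12, against 0.01 over all genes tested. Of the 24, 10 were under the filter's level of 3.99 CPM in at least 1 WT library and needed db/db libraries to pass the filter. With at least 10 counts required in every library, 15 of 24 tested were higher. With the muscle covariate, 9 of the 37 were higher, beside 4.65% of all genes.

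Enzymes and chaperones of chain hydroxylation and folding in the endoplasmic reticulum had the lowest list median, a log2 fold change of 0.57, and 7 of 12 tested genes rose. Fkbp14, a prolyl isomerase, rose by 1.44 log2 units (SE 0.48, edgeR adjusted p 0.0334). It had 9, 6, 7 and 1 counts in WT, under the filter's level in all 4 libraries, and needed db/db libraries to pass the filter. Serpinh1, the collagen chaperone Hsp47, went from 25.2 ± 7.08 to 63.1 ± 13.5 CPM, a change of 1.33 log2 units (SE 0.21, edgeR adjusted p 0.000167). P4ha1, a catalytic subunit of prolyl hydroxylation, went the other way without passing the test. It went from 11.5 ± 3.87 to 6.2 ± 3.95 CPM, a change of −0.83 log2 units (SE 0.40, edgeR adjusted p 0.133). Plod2, a lysyl hydroxylase, was under the filter, with 3, 6, 5 and 0 counts in WT and 16, 22, 12 and 11 counts in db/db. The count of 7 fell to 4 without WT replicate 2, 3 or 4 or db/db replicate 2, each left out alone, and to 0 with the muscle covariate.

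Of the genes of secretion and propeptide removal, 4 of 10 tested rose, and 3 with the muscle covariate. Pcolce2 and Pcolce, which speed the removal of the propeptide at the end of a fibrillar chain, changed by 2.90 log2 units (SE 0.30, edgeR adjusted p 1.61e-06) and 2.65 log2 units (SE 0.22, edgeR adjusted p 1.85e-07). Pcolce shares exon bases with Fbxo24 and is uncertain to that extent. All 4 tested cross-linking genes rose, and 3 with the muscle covariate. Among these, the lysyl oxidases Loxl1 and Loxl2 changed by 2.95 log2 units (SE 0.29, edgeR adjusted p 9.42e-07) and 2.15 log2 units (SE 0.36, edgeR adjusted p 0.000246), and Lox went from 36.3 ± 11.4 to 149.7 ± 37.3 CPM, a change of 2.05 log2 units (SE 0.21, edgeR adjusted p 1.59e-06).

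Degradation genes were also higher in 4 of 6 tested, and in 1 with the muscle covariate. Of the 4, 3 were under the filter's level in at least 1 WT library, and 1 of 3 tested was higher with at least 10 counts in every library. Mrc2, a receptor that takes up cleaved collagen, changed by 3.42 log2 units (SE 0.47, edgeR adjusted p 3.97e-05), and Ctsk, the collagen-cutting protease cathepsin K, by 1.91 log2 units (SE 0.48, edgeR adjusted p 0.00616). Both sizes rest on few WT reads: Mrc2 had 2, 1, 5 and 1 counts in WT and 37, 37, 25 and 18 counts in db/db, and Ctsk had 2, 2, 9 and 10 counts in WT and 39, 16, 18 and 29 counts in db/db. Mmp2, a gelatinase, rose by 1.30 log2 units (SE 0.24, edgeR adjusted p 0.00048), while its membrane-bound activator Mmp14 stood at 0.52 log2 units (SE 0.24, edgeR adjusted p 0.124). Collagen receptors were higher in 5 of 5 tested, and in 2 with the muscle covariate. The count was 5 under limma-voom but 4 under DESeq2, RLE and upper quartile scaling. It was also 4 when any 1 library other than WT replicate 2 was left out. The largest changes without the covariate were those of Cd44 at 2.91 log2 units (SE 0.36, edgeR adjusted p 1.41e-05) and the collagen-binding kinase Ddr1 at 2.59 log2 units (SE 0.23, edgeR adjusted p 3.61e-07). Cd44 had 4, 2, 6 and 8 counts in WT, under the filter's level in all 4 libraries, and needed db/db libraries to pass the filter. Ddr2, the kinase that binds fibrillar collagens, stood at 1.66 log2 units (SE 0.33, edgeR adjusted p 0.00109).

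Markers of the cell types that the tissue could hold moved with the genotypes, and their part in the collagen values was not tested. All 10 fibroblast markers tested rose, 4 of them from under the filter's level in at least 1 WT library, with summed levels of 1012 to 1703 CPM in WT and 2535 to 4007 CPM in db/db. Mfap5 and Dpp4, genes of progenitor-rich fibroblasts, changed by 2.83 log2 units (SE 0.35, edgeR adjusted p 1.26e-05) and 2.57 log2 units (SE 0.46, edgeR adjusted p 0.000421). Dpp4 had no more than 3 counts in any WT library. Of 6 mural cell markers 3 rose (202 to 243 CPM in WT and 333 to 450.0 CPM in db/db), with the contractile actin Acta2 at 2.21 log2 units (SE 0.27, edgeR adjusted p 1.32e-05) and the pericyte proteoglycan Cspg4 at 1.02 log2 units (SE 0.35, edgeR adjusted p 0.0363).

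Of 7 endothelial markers tested, 3 fell and the other 4 did not pass the test. The sums were 388 to 442 CPM in WT and 279.6 to 334 CPM in db/db. Tek, the angiopoietin receptor, changed by −1.20 log2 units (SE 0.37, edgeR adjusted p 0.021) and the endothelial sialomucin Emcn by −1.06 log2 units (SE 0.29, edgeR adjusted p 0.0115). No marker of these or the following lists had 0 counts in all libraries.

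Macrophage markers rose in 6 of 7 tested (132 to 174 CPM in WT and 599 to 1051 CPM in db/db), led by the lysozyme gene Lyz2 at 2.79 log2 units (SE 0.20, edgeR adjusted p 3.02e-08) and Cd68 at 2.41 log2 units (SE 0.27, edgeR adjusted p 5.37e-06). The seventh, Cd14, was at −1.03 log2 units (SE 0.45, edgeR adjusted p 0.0997). Skeletal muscle markers rose in 8 of 8 (344 to 1192 CPM in WT and 1741 to 8677 CPM in db/db), led by the skeletal actin Acta1 at 3.05 log2 units (SE 0.45, edgeR adjusted p 6.79e-05) and the fast troponin Tnni2 at 2.89 log2 units (SE 0.44, edgeR adjusted p 8.72e-05).

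Brown adipocyte markers fell in 4 of 4 tested (7627 to 9208 CPM in WT and 3040.2 to 5661 CPM in db/db). Cidea, a lipid droplet protein, changed by −1.24 log2 units (SE 0.17, edgeR adjusted p 4.19e-05) and the thermogenic coactivator Ppargc1a by −0.79 log2 units (SE 0.23, edgeR adjusted p 0.0158). General adipocyte markers were mixed, with sums of 14574 to 25312 CPM in WT and 16263 to 21761 CPM in db/db. Of 6 tested, Plin1 and Fabp4 rose by 0.79 log2 units (SE 0.15, edgeR adjusted p 0.000685) and 0.65 log2 units (SE 0.21, edgeR adjusted p 0.0309), and Cfd and Lpl changed by −2.66 log2 units (SE 0.28, edgeR adjusted p 2.59e-06) and −0.46 log2 units (SE 0.14, edgeR adjusted p 0.0232).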

How the data were processed

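The members and gene lists were chosen with earlier results of these data known. Per the study's methods, total RNA was sequenced single-end, reads were trimmed with bbduk, aligned to mm10 with STAR and counted per Ensembl gene with HTSeq-count, and the authors deposited raw counts. The submitters' processing notes instead list Trimmomatic, HISAT2 and DESeq2. Strand settings and removal of PCR copies are not given in the sources used here, so counts may include PCR copies. Deposited normalized values and the sample sheet were not used. Groups came from the sample titles. Symbols and positions came from GENCODE M21 (31011 of 31053 identifiers matched). Nothing in the labels says more of the replicates than their number, so p-values measure the spread between these samples.

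Genes were filtered with filterByExpr (minimum count 10, minimum total 15), scaled by TMM and tested for genotype, with no other term, by quasi-likelihood in edgeR 4.0.16 (R 4.3.3) with Benjamini-Hochberg adjustment over all 9264 genes at 0.05. The study used DESeq2 (1.42.0 here), which was an alternative beside limma-voom 3.58.1, other scalings and filters, a replicate block, a muscle covariate and leaving out each library. CPM are counts relative to the TMM-scaled library size. Ratios used a pseudocount of 0.5. Every tested member is named. Members reaching 10 CPM on average in either genotype have every value given, as does Col8a1. From each list of other genes, the 2 called genes of largest change in each direction are named, besides P4ha1, Plod2, Serpinh1, Lox, Loxl1, Mmp2, Mmp14 and Ddr2, and Cd14, Comp and genes named for 0 counts or overlap were picked after their values were seen. One further marker list is not reported here. Figures were drawn with matplotlib 3.10.9.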

Additional observations from a re-analysis of the deposited data

Results flagged for a closer look

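In 2 of 62 sets of 4 values examined (members and ratios), 1 library stood apart by Dixon's 95% criterion, where chance flags about 1 in 20 groups. In db/db replicate 1, Col4a2 had 350.5 CPM, while the other db/db libraries had 206 to 228. The same library had 125 CPM of Col5a1, while the others had 50.6 to 62.5. Without that library both genes were still called, at log2 fold changes of 0.77 for Col4a2 (edgeR adjusted p 2.44e-04) and 2.18 for Col5a1 (edgeR adjusted p 2.18e-07).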

How the results depend on the processing

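The calls of the 18 tested members were the same under DESeq2, limma-voom, RLE and upper quartile scaling, the looser filter and the replicate block, in 144 of 144 comparisons with 1 library left out, and for the 12 members left with at least 10 counts in every sample. None of the 9 chain ratios passed an adjusted p of 0.05 with a pseudocount of 2 either. With 1 library left out, given as values without a test, the genotype difference kept its direction in all class sums and in 6 of the 9 ratios, of which Col6a3 to Col6a1 ranged most in proportion (−0.53 to −0.19, log2 scale). It reached or crossed 0 for Col1a1 to Col1a2 (−0.20 to 0), Col4a1 to Col4a2 (−0.09 to 0.05) and Col6a1 to Col6a2 (−0.18 to 0.06). With the skeletal muscle covariate, collagen genes called higher were 7 in place of 17 (fibrillar 4, basement membrane 1, others 0), and collagen maturation genes called higher were 9 in place of 24 (hydroxylation and folding 0, secretion 3, cross-linking 3, degradation 1, receptors 2). With at least 10 counts in every sample, fewer genes were tested, and the calls were 2 basement membrane chains, 0 other chains, and 15 maturation genes (secretion 2, cross-linking 2, degradation 1). Testing all genes gave 1 collagen gene lower, Col11a2. A maturation gene was called lower, 1 each, with upper quartile scaling (Mia2, log2 fold change −0.50, edgeR adjusted p 0.0474), all genes (P4ha1, −0.89, edgeR adjusted p 0.0449) and the muscle covariate (P4ha1, −2.11, edgeR adjusted p 0.0471). In these settings 13.0%, 8.01% and 1.68% of all genes tested were called lower. With 1 library left out the count of maturation genes called lower was 0 to 1 (Mia2 without WT replicate 1 or db/db replicate 4, P4ha1 without db/db replicate 1). The hydroxylation and folding calls were then 4 to 7. Where no cause is named, the cause was not tested.

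Replicate numbers 1 to 4 occur in both genotypes but concern different animals. Deviations of same-numbered libraries correlated across genes with r from −0.0781 to 0.0490, so no shared deviation by number was seen. Whether same-numbered samples were handled together cannot be told from this. A fit blocked on the replicate number called 2557 genes, among them 17 collagen genes.

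Depth limits the 26 members under the filter, 8 of them at 0 counts throughout, which were left out of the main test. Genotype and muscle level go together in these 8 libraries.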
